A study of Mus musculus with 6 samples.

Results

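The genes described here belong to the tumour necrosis factor (TNF) and TWEAK signalling system and were followed through injured mouse muscle, taken by symbol as 9 of the 32285 rows of the count matrices. They are the ligands Tnf and Tnfsf12 (which encodes TWEAK), the receptors Tnfrsf1a, Tnfrsf1b and Tnfrsf12a (which encodes Fn14, the TWEAK receptor), and Tnfaip3, Nfkbia, Birc3 and Bcl3, which encode regulators of the NF-kB pathway. All 9 symbols were found. Mononucleated cells from the tibialis anterior muscles of both hindlimbs of wild-type mice were sorted by flow cytometry, without the dead cells that take up propidium iodide, and run on 10x Genomics 3′ chemistry. The 6 libraries came from uninjured muscle (day 0) and from muscle 1 and 3 days after injury with cardiotoxin, a snake venom toxin that destroys muscle fibres, each at the circadian hours ZT16 and ZT4. ZT counts hours from lights on, and all groups share the wild-type genotype. Strain, age and the number of mice behind a library are not given in the sources used here. Each combination of day and hour is 1 library, so no test between groups was possible and no p-value is given.

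TNF is a cytokine made largely by activated myeloid cells and lymphocytes. It binds TNFR1 (Tnfrsf1a), which most cells carry, and TNFR2 (Tnfrsf1b), which is found mainly on leukocytes and endothelium. TWEAK binds Fn14, a small receptor that is low in resting muscle and is known to be induced by damage and denervation, and it can drive both muscle wasting and myoblast growth. These receptors free NF-kB from its inhibitors, and NF-kB then switches on several of its own brakes, among them Nfkbia (IkB-alpha, which holds NF-kB in the cytoplasm) and Tnfaip3 (A20, an enzyme that edits ubiquitin chains on the signalling complex).

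The start-site regions of 3 members are shown because Nfkbia and Tnfaip3 were the pair of members with the most alike profiles in these data, while Tnfrsf12a followed another pattern. Each is the 250 bases upstream of the RefSeq start on GRCm38.p6, written 5′ to 3′ on the gene's own strand, with matches to the consensus kappa-B motif (the binding sequence of NF-kB, searched on both strands) in capitals.
Nfkbia, chr12:55492648-55492897, minus strand: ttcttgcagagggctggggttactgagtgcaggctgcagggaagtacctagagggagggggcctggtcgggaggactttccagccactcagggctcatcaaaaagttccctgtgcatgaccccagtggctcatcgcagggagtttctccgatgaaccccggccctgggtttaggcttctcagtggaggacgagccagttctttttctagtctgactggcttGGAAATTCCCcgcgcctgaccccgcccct
Tnfaip3, chr10:19015411-19015660, minus strand: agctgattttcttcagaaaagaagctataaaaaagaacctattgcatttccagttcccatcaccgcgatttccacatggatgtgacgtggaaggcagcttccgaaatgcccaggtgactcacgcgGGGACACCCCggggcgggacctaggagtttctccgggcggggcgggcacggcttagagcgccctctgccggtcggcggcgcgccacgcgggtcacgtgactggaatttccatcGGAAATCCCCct
Tnfrsf12a, chr17:23677450-23677699, minus strand: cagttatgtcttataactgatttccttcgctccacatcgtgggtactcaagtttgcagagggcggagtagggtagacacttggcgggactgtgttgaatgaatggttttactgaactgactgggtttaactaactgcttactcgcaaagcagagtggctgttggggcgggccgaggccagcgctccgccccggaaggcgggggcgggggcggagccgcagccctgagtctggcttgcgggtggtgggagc
The Nfkbia window held 1 match, ending 19 bases before the start. The Tnfaip3 window held 2, ending 115 and 2 bases before it, while the window of a second start of that gene in the table, chr10:19011964-19012213, held none. Of the 8 members with a window in the table, the other 6 (Tnf, Tnfrsf1a, Tnfrsf1b, Tnfrsf12a, Birc3 and Bcl3) had no match within these 250 bases, and 7.25% of 32851 such windows over all genes held at least 1. A match describes letters only, and the absence of one from so short a window says nothing of sites elsewhere.

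In the annotation used for coordinates (GENCODE vM21, GRCm38) all 9 genes are protein-coding, and each value below counts UMIs (molecules tagged before amplification) assigned to the whole gene. Tnf lies at 17:35199381-35202007, Tnfsf12 at 11:69686250-69695849, Tnfrsf1a at 6:125349362-125362484, Tnfrsf1b at 4:145213463-145246870, and Tnfrsf12a at 17:23675445-23677468. Tnfaip3 lies at 10:19000910-19015657, Nfkbia at 12:55489410-55492647, Birc3 at 9:7848699-7873186, and Bcl3 at 7:19808462-19822770. Tnfrsf1a lies on the plus strand and the rest on the minus strand. Tnfsf12 overlaps the read-through gene Tnfsfm13 on its own strand and Tnfsf13os on the other, and Bcl3 overlaps Gm16174 and Gm16175 on the other strand, so the reads of these 2 members may be shared with those genes.

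The 6 libraries held between 72747703 and 132221721 UMIs in 8626 to 14079 barcodes, of which 7638 to 11168 were kept per library. A cell barcode was found in more than 1 library for 562 of 68724 barcodes, with 21 to 65 shared by any pair. Cells were grouped without the 9 genes, and each group was named by fixed markers with the ending -like. Neutrophil-like cells numbered 7 and 3 on day 0 (ZT16 and ZT4), so their first usable libraries are those of day 1, with 4223 and 4814 cells. Myogenic-like cells numbered 31 and 14 on day 1 and were not compared there. Levels are UMIs of the gene per 1000000 UMIs of the class (CPM). Their 95% Poisson intervals, and those of the log2 folds, cover counting error only.

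**Figure D1:**
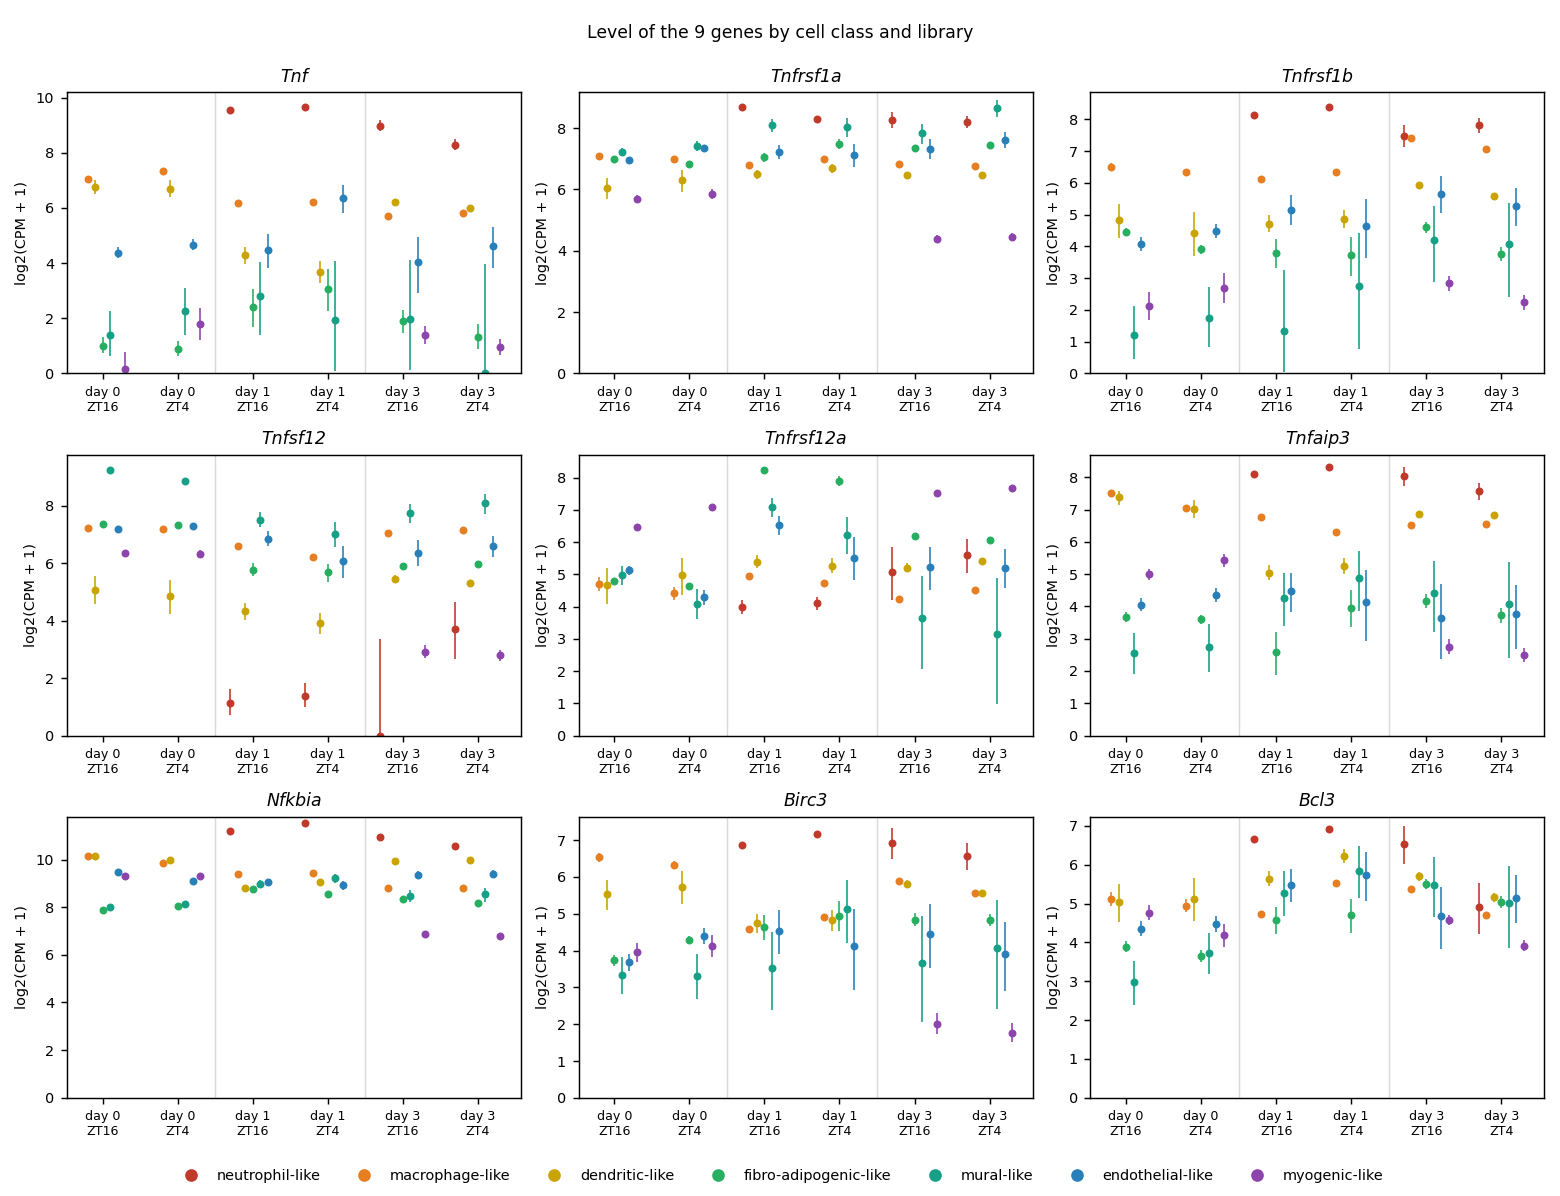
Level of each of the 9 genes as log2(CPM + 1) in 7 cell classes and 6 libraries, with 95% Poisson intervals as bars (counting error only); a class is shown where it had at least 50 cells. Neutrophil-like cells lead for Tnf from day 1, mural-like cells lead for Tnfsf12 in all 6 libraries, and fibro-adipogenic-like cells lead for Tnfrsf12a on day 1.

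Per UMI of the class, Tnf was highest in macrophage-like cells on day 0 and in neutrophil-like cells on days 1 and 3. On day 0 the macrophage-like class was the highest of those with 50 cells at both hours, with 132 CPM at ZT16 and 160 CPM at ZT4. The dendritic-like class had 108 and 103 CPM, and its interval overlapped that of the macrophage-like class at ZT16. T cell-like cells, too few to read at ZT16, had 156 CPM at ZT4, an interval that also overlapped that of the macrophage-like class. Endothelial-like cells had 19.9 and 24.3 CPM. On day 1 neutrophil-like cells carried 750 CPM at ZT16 and 819 CPM at ZT4, against 72.4 and 73.9 CPM in macrophage-like cells of the same libraries. On day 3 the remaining 173 and 282 neutrophil-like cells had 507 and 315 CPM, and macrophage-like cells had 50.9 and 55.3 CPM. T cell-like cells were second that day, with 76.9 and 117 CPM. In sums of UMIs the macrophage-like class held more Tnf on day 3, with 2758 and 3136 UMIs against 201 and 206 UMIs in neutrophil-like cells. In cells thinned to 1000 UMIs, 32.3% of neutrophil-like cells held a Tnf UMI on day 1 at ZT16 and 35.6% at ZT4. In mural-like cells 0 of 101 cells did at ZT16 and 1.64% did at ZT4. The count of 0 allows up to 3.59% (exact binomial) of cells with a UMI at this thinned depth, which is no limit on cells that express the gene. Without thinning the neutrophil-like shares were 48.9% and 51.2% at median depths of 2474 and 2349 UMIs, and the mural-like shares were 3.70% and 1.64% at 6105 and 5863 UMIs.

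Tnf differed among the 3 neutrophil-like clusters of day 1. Cluster 0 had 837 CPM at ZT16 and 946 CPM at ZT4, cluster 14 had 669 and 882 CPM, and cluster 13 had 470 and 387 CPM. Cluster 13 was therefore lowest at both hours. The macrophage-like clusters of that day also differed, with 80.9 and 101 CPM in cluster 1 against 39.1 and 35.6 CPM in cluster 4.

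**Figure D2:**
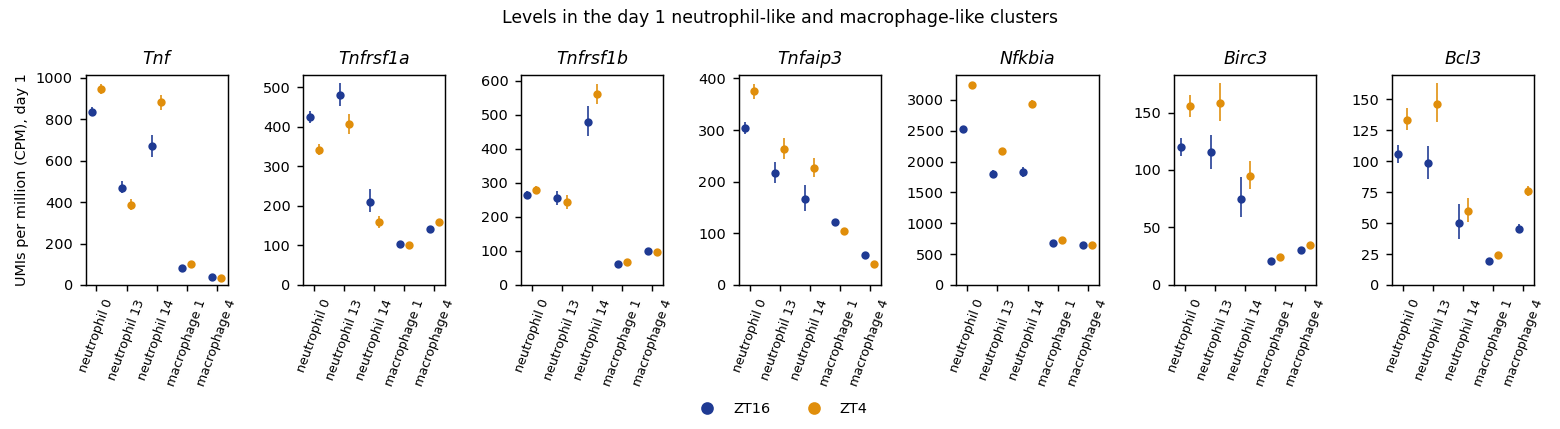
CPM of 7 members in the 3 neutrophil-like and the main pair of macrophage-like clusters of day 1, ZT16 and ZT4, with 95% Poisson intervals as bars. All 3 neutrophil-like clusters lie above both macrophage-like clusters for Tnf, and cluster 14 is highest for Tnfrsf1b and lowest of the 3 for Tnfrsf1a.

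Tnfsf12 was highest in mural-like cells, the cells around small vessels, in all 6 libraries. Their values were 607 CPM at ZT16 and 470 CPM at ZT4 on day 0, 182 and 128 CPM on day 1, and 215 and 271 CPM on day 3. Within that class on day 0, cluster 16, led by Kcnj8, Abcc9 and Higd1b, held 690 and 561 CPM. Cluster 36, led by Pln, Myh11 and Tagln, held 128 and 132 CPM. Fibro-adipogenic-like cells (the matrix-making stromal progenitors of muscle) had 163 and 160 CPM on day 0, close to macrophage-like cells at 150 and 147 CPM and endothelial-like cells at 146 and 157 CPM. Neutrophil-like cells on day 1 had 1.19 and 1.62 CPM, from 13 and 19 UMIs. The class with the most Tnf on day 1 thus had almost no Tnfsf12, whereas the macrophage-like class, highest for Tnf on day 0, had both.

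Tnfrsf1a was read in stromal, vascular and myeloid classes alike. On day 0 macrophage-like, fibro-adipogenic-like, mural-like and endothelial-like cells lay between 112 and 170 CPM. Myogenic-like cells, which include the muscle stem cells, had 50.8 CPM at ZT16 and 57.0 CPM at ZT4. Mature muscle-like barcodes had 5.0 and 4.93 CPM, and at ZT4 T cell-like cells had 11.1 CPM and B cell-like cells 4.40 CPM. On day 1 neutrophil-like cells were highest with 415 and 315 CPM, followed by mural-like cells with 271 and 261 CPM, whose interval overlapped at ZT4. At ZT4 on day 3 the mural-like value of 401 CPM and that of the neutrophil-like class, 293 CPM, had overlapping intervals.

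Tnfrsf1b was highest in macrophage-like cells on day 0 and in neutrophil-like cells on days 1 and 3. Macrophage-like cells led on day 0 with 90.4 CPM at ZT16 and 80.0 CPM at ZT4, against 20.9 and 13.96 CPM in fibro-adipogenic-like and 15.9 and 21.5 CPM in endothelial-like cells. Neutrophil-like cells led on day 1 with 282 and 333 CPM. Cluster 14 carried 479 and 561 CPM there, while its Tnfrsf1a was 211 and 158 CPM. The other neutrophil-like clusters had the reverse balance, with Tnfrsf1b between 243 and 279 CPM and Tnfrsf1a between 341 and 481 CPM. On day 3 neutrophil-like cells had 177 and 225 CPM of Tnfrsf1b and macrophage-like cells 171 and 133 CPM, with overlapping intervals at ZT16. Both macrophage-like values lay above those of the same class on day 0 and day 1.

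Among the named classes with at least 50 cells, Tnfrsf12a was highest in myogenic-like or fibro-adipogenic-like cells in all 6 libraries. The immune classes were not below all others, since on day 0 at ZT4 dendritic-like cells had 30.3 CPM and mural-like cells 16.1 CPM. On day 0 myogenic-like cells were highest with 86.9 CPM at ZT16 and 135 CPM at ZT4, and fibro-adipogenic-like cells had 26.7 and 23.9 CPM. On day 1 fibro-adipogenic-like cells reached 303 and 237 CPM. The 31 and 14 myogenic-like cells of day 1, too few to compare, had 612 and 571 CPM. On day 3 myogenic-like cells were highest again with 182 and 202 CPM. Among neutrophil-like cells of day 1, which had 14.8 and 16.2 CPM, 1.36% and 1.32% of cells thinned to 1000 UMIs held a UMI, against 23.4% and 14.6% of fibro-adipogenic-like cells (unthinned 3.05% and 3.47%, against 65.0% and 63.3%, at fibro-adipogenic-like median depths of 13735 and 15999 UMIs).

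A pair of clusters that no class name was given also carried Tnfrsf12a on day 1. Cluster 26, with the endothelial markers but led by Apln, Pgf and Prnd, had 234 CPM at ZT16 and 239 CPM at ZT4, from 217 and 115 cells. Cluster 18, of low depth and with mature muscle markers, had 181 and 271 CPM from 502 and 320 cells. Both were above the 91.6 and 45.0 CPM of the endothelial-like class of the same libraries. Against the fibro-adipogenic-like class, both were below its 303 CPM at ZT16. At ZT4 cluster 18 was above its 237 CPM and cluster 26 was close to it.

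Of the regulators, Nfkbia was highest in neutrophil-like cells on day 1, with 2324 CPM at ZT16 and 2953 CPM at ZT4, against 672 and 684 CPM in macrophage-like cells. Tnfaip3 had 274 and 320 CPM in the same neutrophil-like cells and 107 and 77.5 CPM in macrophage-like cells. On day 1 at ZT16 T cell-like cells had 237 CPM of Tnfaip3, and that interval overlapped the neutrophil-like one. Tnfaip3 was highest in T cell-like cells on day 3, with 291 and 350 CPM. At ZT16 that interval overlapped the one of neutrophil-like cells, which had 260 CPM. Birc3 (cIAP2, a ubiquitin ligase recruited to TNF receptors) and Bcl3 (a nuclear IkB protein that works with p50 and p52) followed the same order on day 1. Birc3 had 115 and 143 CPM in neutrophil-like and 23.2 and 28.9 CPM in macrophage-like cells, and Bcl3 had 99.3 and 120 CPM against 25.3 and 45.4 CPM.

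Across the 54 combinations of class and library, the log2 levels of Tnfaip3 and Nfkbia had a Pearson correlation of 0.86, the highest of all pairs of members. Tnf correlated with Tnfrsf1b at 0.84, with Tnfaip3 at 0.83 and with Nfkbia at 0.83. The lowest value was that of Tnf with Tnfsf12, -0.34, and Tnfrsf12a with Tnfaip3 had -0.31. Among 13038 genes, the profiles most like Tnf were those of Lfng (0.89), Nfkbid and Rab11fip1 (0.88 each). Those most like Nfkbia were Csrnp1 (0.92), Zc3h12a (0.91) and Kdm6b (0.88). Those most like Tnfaip3 were Pim1 (0.93), Rinl and Ccdc88b (0.89 each). Those most like Tnfrsf12a, Steap1 (0.77), Ptges3 and Dusp9 (0.72 each), were less alike. These are descriptions over points that share libraries and classes, with no test.

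The comparison of day 1 with day 0 asks what the first day after injury did to each cell class. A member was called where it differed at least 2-fold in the same direction at ZT16 and ZT4, with at least 30 UMIs at each hour in both days together. The hours are set side by side and are not replicates. Of 42 pairs of member and class that could be read in 5 classes, 6 were higher and 5 lower on day 1, which is 26.2%, beside 17.9% of all gene and class pairs.

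Tnfrsf12a rose in fibro-adipogenic-like, mural-like and endothelial-like cells, and Tnfsf12 fell in the first pair of these. In fibro-adipogenic-like cells Tnfrsf12a had 303 CPM on day 1 and 26.7 CPM on day 0 at ZT16, a log2 fold of 3.50 (95% interval 3.36 to 3.65). At ZT4 it had 237 CPM on day 1 and 23.9 CPM on day 0, a log2 fold of 3.31 (3.13 to 3.50). Both day 1 values stood far above both day 0 values, and the cell with the most UMIs held 4.79% and 6.91% of the day 1 total. Tnfsf12 in the same class had 53.8 CPM on day 1 and 163 CPM on day 0 at ZT16 (log2 fold -1.60), and 50.4 and 160 CPM at ZT4 (-1.66), a call that ended in cells thinned to 1000 UMIs. In this class 28.5% of all 12244 genes read were called, and 3 of 9 members were. The class was made of different clusters on the 2 days, cluster 19 with 88.5% and 85.6% of it on day 1 and clusters 8, 11 and 17 on day 0. Day 1 had 157 and 90 cells, and day 0 had 2451 and 3030. The 13 neutrophil markers summed to 231 CPM on day 1 and 468 CPM on day 0 at ZT16, and to 524 and 362 CPM at ZT4, with Ly6g at 0 in all 4 libraries. Of these markers, 12 had any UMI on day 1 and 7 on day 0 at ZT16, and 11 and 9 at ZT4. S100a8 and S100a9 together made up 152 CPM of the day 1 sum at ZT16 and 357 CPM at ZT4. The part of these transcripts in the result was not tested.

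Mural-like cells moved in the same way within 1 cluster, number 16, which held 87.4% to 93.4% of the class on both days. Their Tnfrsf12a was 135 CPM on day 1 and 30.4 CPM on day 0 at ZT16 (log2 fold 2.15, 1.72 to 2.59), and 73.7 and 16.1 CPM at ZT4 (2.20, 1.40 to 2.97). Their Tnfsf12 was 182 CPM on day 1 and 607 CPM on day 0 at ZT16 (-1.73, -2.02 to -1.47), and 128 and 470 CPM at ZT4 (-1.87, -2.35 to -1.45). Within cluster 16 alone, Tnfrsf12a had 138 CPM on day 1 against 23.0 CPM on day 0 at ZT16, and 68.6 against 13.2 CPM at ZT4. Bcl3 rose too, with 37.9 CPM on day 1 and 6.86 CPM on day 0 at ZT16 (2.46) and 56.7 and 12.3 CPM at ZT4 (2.21), from 20 to 26 UMIs in each library. Of 6 members that could be read, 3 were called, beside 9.16% of all genes. The 13 neutrophil markers summed to 500 CPM on day 1 and 1287 CPM on day 0 at ZT16, and to 4175 and 463 CPM at ZT4. Of these markers, 7 had any UMI on day 1 and 3 on day 0 at ZT16, and 12 and 6 at ZT4. S100a8 and S100a9 together made up 36.4 CPM of the day 1 sum at ZT16 and 3611 CPM at ZT4. On day 0 at ZT16 S100a9, Retnlg and Csf3r were among the markers at 0, so the sums do not follow neutrophil transcripts alone. Ly6g was at 0 in all 4, and the part of these transcripts in the result was not tested.

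Endothelial-like cells gained Tnfrsf12a and Bcl3. Tnfrsf12a had 91.6 CPM on day 1 and 33.9 CPM on day 0 at ZT16 (log2 fold 1.44, 1.09 to 1.77), and 45.0 and 18.6 CPM at ZT4 (1.31, 0.50 to 1.97). Bcl3 had 43.4 CPM on day 1 and 19.5 CPM on day 0 at ZT16 (1.17), and 52.1 and 21.3 CPM at ZT4 (1.32). These were 2 of 9 members, beside 2.53% of all genes called higher. The 13 neutrophil markers summed to 613 CPM on day 1 and 34.9 CPM on day 0 at ZT16, and to 1417 and 10.0 CPM at ZT4, and their part in the result was not tested. Cluster 10 made up 58.0% and 59.1% of the class on day 1, against 27.2% and 26.4% on day 0. Its barcodes were of low depth, with a median of 0.199 of the library median, beside 0.206 in the unnamed cluster 18. The part of such shallow barcodes in the result was not tested. Within cluster 10 Tnfrsf12a was 96.4 CPM on day 1 and 12.4 CPM on day 0 at ZT16, and 54.6 and 7.14 CPM at ZT4. Within cluster 2 it was 85.6 CPM on day 1 and 34.2 CPM on day 0 at ZT16, and 29.7 and 19.1 CPM at ZT4, the last day 1 value from 7 UMIs. Tnfsf12 was not called here, with 115 CPM on day 1 and 146 CPM on day 0 at ZT16, and 66.3 and 157 CPM at ZT4. These folds leave out the unnamed cluster 26, which has the endothelial markers. It held 217 cells on day 1 and 10 on day 0 at ZT16, and 115 and 13 at ZT4.

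Tnf met the rule as higher in fibro-adipogenic-like cells, at a very low level. It had 4.25 CPM on day 1 and 1.01 CPM on day 0 at ZT16, and 7.28 and 0.846 CPM at ZT4, with 12 UMIs in each day 1 library. A single cell held 8 of those 12 UMIs at ZT16 and 7 at ZT4. Without the cell with most Tnf in each library, a check chosen after the data were seen, the log2 fold was 0.81 at ZT16 and 2.11 at ZT4, and the call ended. The neutrophil genes S100a8 and S100a9 stood at 0.273% and 0.550% of their neutrophil-like level in this class on day 1. In neutrophil-like cells that amount came with 2.05 CPM of Tnf at ZT16 and 4.50 CPM at ZT4. For mural-like cells of day 1 the same reckoning gave 0.492 CPM at ZT16 and 45.5 CPM at ZT4, where 6.07 and 2.83 CPM were measured. The reckoned amount can thus exceed the measured level. The part of neutrophil transcripts in the fibro-adipogenic-like Tnf was not tested.

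**Figure D3:**
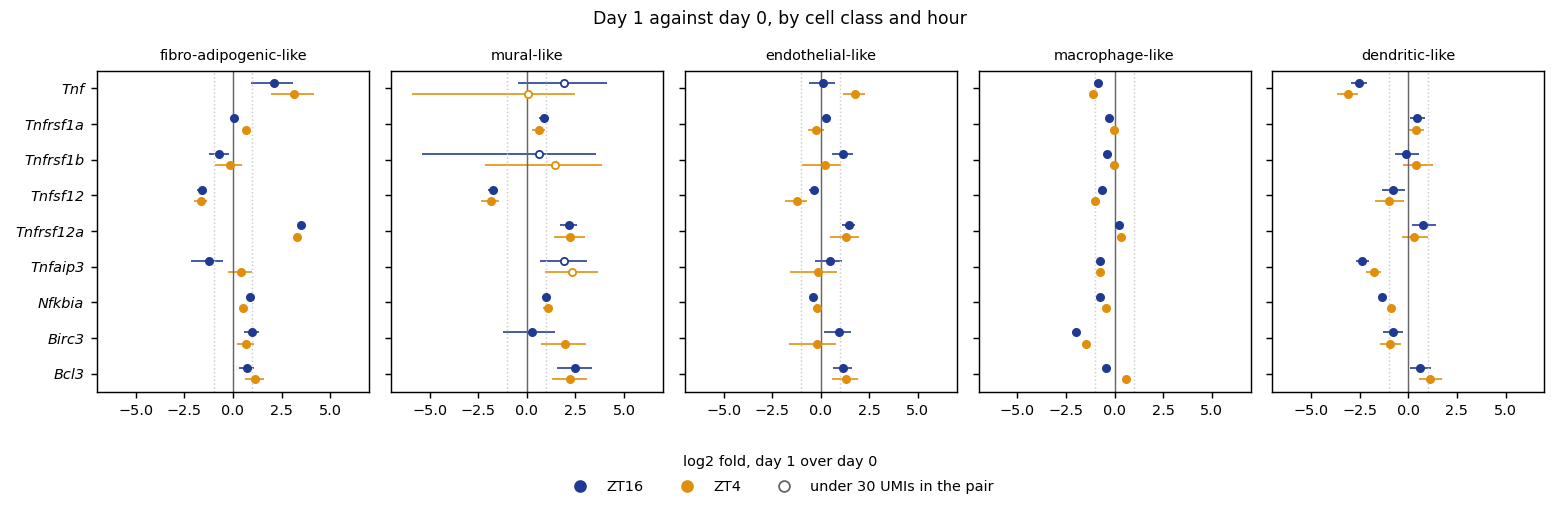
log2 fold of day 1 over day 0 for the 9 genes in 5 classes, with ZT16 and ZT4 as separate points and 95% intervals as bars (counting error only); dotted lines mark 2-fold and open points had under 30 UMIs. Tnfrsf12a lies to the right in fibro-adipogenic-like, mural-like and endothelial-like cells, and Tnfsf12 lies to the left in fibro-adipogenic-like and mural-like cells.

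In macrophage-like and dendritic-like cells no regulator was called higher, and neutrophil-like cells could not be compared with day 0. Bcl3 in dendritic-like cells lay above day 0 at both hours without being called. It had 48.8 CPM on day 1 and 31.9 CPM on day 0 at ZT16, and 73.7 and 34.0 CPM at ZT4. In macrophage-like cells Birc3 fell, with 23.2 CPM on day 1 and 91.3 CPM on day 0 at ZT16 (log2 fold -1.98, -2.12 to -1.84), and 28.9 and 78.6 CPM at ZT4 (-1.45, -1.58 to -1.31). It was the 1 member called of 9, beside 21.2% of all genes called lower. The class was clusters 1 and 4 on day 1 and clusters 20 and 21 on day 0, and Birc3 lay between 21.1 and 34.8 CPM in the first pair and between 69.4 and 91.2 CPM in the second. In dendritic-like cells Tnf fell to 18.6 CPM on day 1, against 108 CPM on day 0, at ZT16 (-2.54), and to 11.9 against 103 CPM at ZT4 (-3.11). Tnfaip3 fell with it, to 32.0 against 165 CPM at ZT16 (-2.37) and 37.4 against 129 CPM at ZT4 (-1.79). These were 2 of 9 members, beside 5.79% of all genes called lower, and day 0 had only 76 and 59 such cells. The 11 resident macrophage markers moved with them, summing to 124 CPM on day 1 and 377 CPM on day 0 at ZT16, and to 113 and 357 CPM at ZT4. Vsig4 was at 0 in all 4 libraries. The 18 monocyte-macrophage markers did not fall in this way. They summed to 2327 CPM on day 1 and 2532 CPM on day 0 at ZT16, and to 2392 and 2295 CPM at ZT4. The part of macrophage transcripts in the result was not tested. Cluster 7 made up 80.3% and 81.4% of the class on day 0, and 81.7% and 82.5% on day 1. Cluster 23, led by Nusap1, Hist1h2ae and Mki67, held 11 of 333 cells on day 1 and 13 of 76 on day 0 at ZT16. At ZT4 it held 6 of 348 and 8 of 59. The part of this change in make-up was not tested.

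Over all kept cells of a library, 4 of 9 members were higher on day 1, beside 10.5% of all genes. Tnf had 152 CPM on day 1 and 19.5 CPM on day 0 at ZT16, and 206 and 30.1 CPM at ZT4, and Tnfrsf1b had 89.1 and 20.5 CPM at ZT16 and 119 and 21.7 CPM at ZT4. Tnfaip3 and Bcl3 were the others. No compared class showed all 4 rises. The neutrophil-like class, highest for each of the 4 on day 1, had 4223 and 4814 cells on day 1 against 7 and 3 on day 0, so in these sums more cells of a type and more RNA per cell cannot be told apart.

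Other genes of the pathway were read from lists. In fibro-adipogenic-like cells on day 1, 8 of 13 readable NF-kB target genes were higher and 1, Irf1, lower. Their median log2 fold was 1.95, beside -0.32 over all genes read, of which 28.5% were called. Ccl2, the monocyte attractant, had 5099 CPM on day 1 and 31.7 CPM on day 0 at ZT16, and 2172 and 77.2 CPM at ZT4. Cxcl2, a neutrophil attractant, had 330 and 2.06 CPM at ZT16 and 132 and 3.00 CPM at ZT4. In mural-like cells 5 of 7 targets were higher and none lower, with a median of 2.38 beside -0.09, where 9.16% of all genes were called. Il6 there had 177 CPM on day 1 and 11.1 CPM on day 0 at ZT16, and 184 and 6.15 CPM at ZT4. Of the 5 NF-kB subunits, Nfkb2 and Rel were higher in both classes and Relb in mural-like cells. Of the receptor adaptors and kinases, 1 of 16 readable, Traf5, was lower and none higher in fibro-adipogenic-like cells, and none of 11 was called in mural-like cells. In macrophage-like cells 5 of 14 targets were higher and 6 lower, and 5 of 12 other feedback genes were lower, beside 26.8% of all genes called in either direction. The medians were 0.86 for the targets and -0.57 for the feedback genes, beside -0.29 over all genes.

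The comparison of day 3 with day 1 sets the cell classes of separate libraries side by side. Of 44 readable pairs of member and class in 6 classes, 4 were higher and 1 lower on day 3, which is 11.4%, beside 14.2% of all pairs. Tnfrsf12a fell in fibro-adipogenic-like cells, with 71.9 CPM on day 3 and 303 CPM on day 1 at ZT16 (log2 fold -2.07, -2.22 to -1.93), and 65.9 and 237 CPM at ZT4 (-1.85, -2.03 to -1.67). It was the 1 member called of 8, beside 6.59% of all genes called lower, and cluster 19 held most of the class on both days. Tnfsf12 in that class had 58.7 CPM on day 3 and 53.8 CPM on day 1 at ZT16, and 61.7 and 50.4 CPM at ZT4.

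In dendritic-like cells 3 of 9 members were higher on day 3, beside 7.99% of all genes. Tnf had 74.0 CPM on day 3 and 18.6 CPM on day 1 at ZT16 (log2 fold 1.99), and 62.2 and 11.9 CPM at ZT4 (2.37). Tnfaip3 had 115 and 32.0 CPM at ZT16 (1.84) and 114 and 37.4 CPM at ZT4 (1.60). Tnfsf12 had 43.1 and 19.0 CPM at ZT16 and 39.2 and 14.1 CPM at ZT4, a call that ended with doublets kept, with free RNA subtracted and at finer clustering. The 18 monocyte-macrophage markers moved with these genes, summing to 8179 CPM on day 3 and 2327 CPM on day 1 at ZT16 and to 9648 and 2392 CPM at ZT4. All 18 were above 0 in these 4 libraries, and their part in the result was not tested. The make-up of the class changed as well. Cluster 23 held 234 of 1037 cells on day 3 and 11 of 333 on day 1 at ZT16. At ZT4 it held 411 of 1537 and 6 of 348. Cluster 7 made up 66.1% and 65.1% of the class on day 3, against 81.7% and 82.5% on day 1. The part of this change in the result was not tested.

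In neutrophil-like cells Tnfrsf12a met the rule as higher on day 3, with 32.8 CPM against 14.8 CPM on day 1 at ZT16, and 47.4 against 16.2 CPM at ZT4. The day 3 values rest on 13 and 31 UMIs, and the call ended with doublets kept and under another scaling. It was the 1 member called of 8, beside 19.4% of all genes called higher. No member was called in endothelial-like, mural-like or macrophage-like cells, where 3.02%, 4.59% and 19.0% of all genes were. The macrophage-like class was mostly clusters 1 and 4 on day 1 and clusters 3, 5 and 6 on day 3. Over all kept cells Tnf alone was called and fell, with 41.5 CPM on day 3 and 152 CPM on day 1 at ZT16, and 39.3 and 206 CPM at ZT4, beside 5.52% of all genes called lower.

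The comparison of day 3 with day 0 shares its day 0 and day 3 libraries with the comparisons above. Of 54 readable pairs of member and class in 7 classes, 4 were higher and 8 lower on day 3, which is 22.2%, beside 15.3% of all pairs. Of the 8 lower, 5 were in myogenic-like cells, the class with the most calls.

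In myogenic-like cells Nfkbia, Tnfaip3, Birc3, Tnfsf12 and Tnfrsf1a fell. Nfkbia had 116 CPM on day 3 and 626 CPM on day 0 at ZT16 (log2 fold -2.44, -2.51 to -2.36), and 110 and 625 CPM at ZT4 (-2.50, -2.57 to -2.43). Tnfaip3 had 5.73 CPM on day 3 and 30.8 CPM on day 0 at ZT16 (-2.42), and 4.66 and 42.0 CPM at ZT4 (-3.17). Birc3 had 3.05 and 14.6 CPM at ZT16 (-2.25), and 2.42 and 16.5 CPM at ZT4 (-2.76). All 3 had day 3 values below both day 0 values by more than 4-fold.

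Tnfsf12 had the largest difference of the members in this class, with 6.57 CPM on day 3 and 81.3 CPM on day 0 at ZT16 (log2 fold -3.63, -3.92 to -3.35), and 5.91 and 79.7 CPM at ZT4 (-3.75, -4.02 to -3.49). Tnfrsf1a fell to 19.9 CPM on day 3, against 50.8 CPM on day 0, at ZT16 (-1.36), and to 21.0 against 57.0 CPM at ZT4 (-1.44). Its call ended in cells thinned to 1000 UMIs. Tnfrsf12a went the other way without being called, with 182 CPM on day 3 and 86.9 CPM on day 0 at ZT16, and 202 and 135 CPM at ZT4. Bcl3 had 23.0 and 26.2 CPM at ZT16 and 14.1 and 17.2 CPM at ZT4.

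The myogenic-like count was 5 of 9 members, beside 18.2% of all genes called lower. The class was cluster 12 for 92.9% and 99.6% of day 0 cells and clusters 22, 31 and 35 on day 3, and median depth was 43025 and 44907.5 UMIs on day 3 against 6773 and 5597 UMIs on day 0. The 18 monocyte-macrophage markers summed to 825 CPM on day 3 and 2642 CPM on day 0 at ZT16, and to 793 and 2701 CPM at ZT4. Of these markers, 17 had any UMI on day 3 and 13 on day 0 at ZT16, and 18 and 13 at ZT4. The 11 resident macrophage markers summed to 15.5 CPM on day 3 and 107 CPM on day 0 at ZT16, and to 17.4 and 176 CPM at ZT4. The part of macrophage transcripts in this result was not tested. In cells thinned to 1000 UMIs the directions of Nfkbia, Tnfaip3, Birc3 and Tnfsf12 and the 2-fold size were kept. Among the day 3 clusters Nfkbia was lowest in cluster 35, with 53.2 and 57.4 CPM, against 125 and 112 CPM in cluster 22 and 125 and 144 CPM in cluster 31. Tnfrsf12a was highest in cluster 31, with 217 and 242 CPM.

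Of the lists, 5 of 12 other NF-kB feedback genes were lower in myogenic-like cells on day 3 and none was higher, with a median log2 fold of -0.78 beside -0.06 over all genes, of which 18.2% were called lower. Zfp36, an RNA-binding protein that destabilises cytokine transcripts, had 65.4 CPM on day 3 and 1109 CPM on day 0 at ZT16, and 50.9 and 1259 CPM at ZT4. Of 10 NF-kB target genes 5 were lower and none higher, with a median of -1.06. Cxcl1 had 15.9 and 401 CPM at ZT16 and 16.2 and 579 CPM at ZT4. None of the 5 subunits was called.

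**Figure D4:**
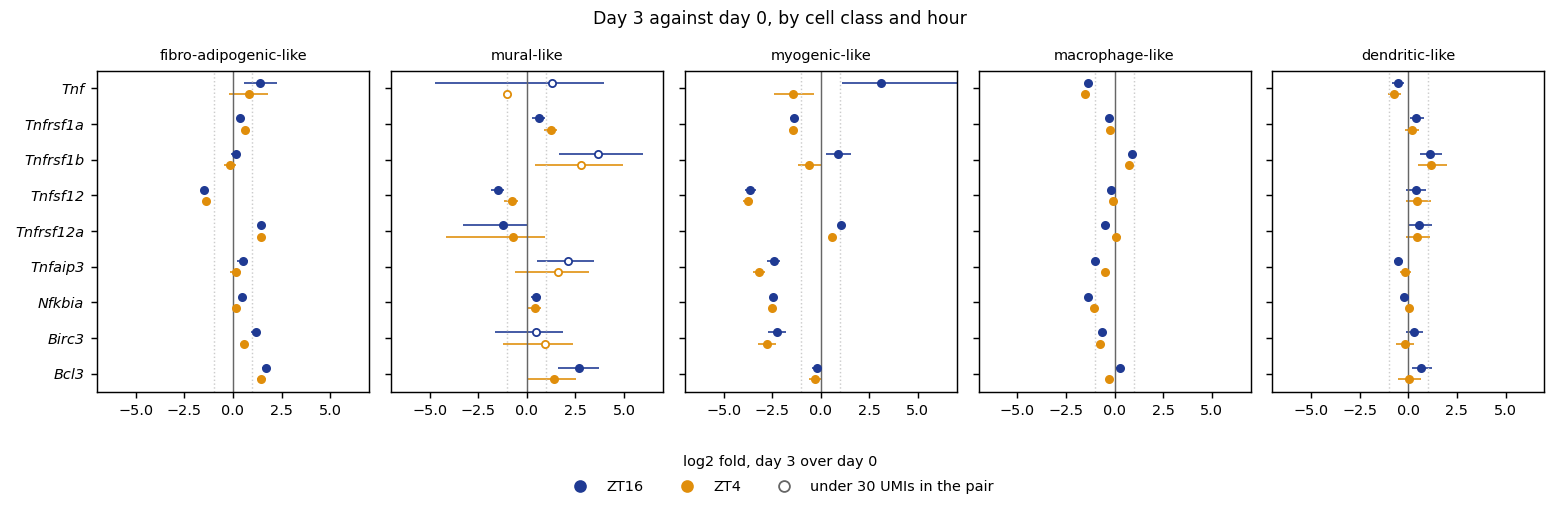
log2 fold of day 3 over day 0 for the 9 genes in 5 classes, with ZT16 and ZT4 as separate points and 95% intervals as bars (counting error only; bars are clipped at the axis ends, and an unbounded interval has no bar); dotted lines mark 2-fold and open points had under 30 UMIs. In myogenic-like cells Tnfrsf1a, Tnfsf12, Tnfaip3, Nfkbia and Birc3 lie left of the 2-fold line at both hours.

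In fibro-adipogenic-like cells Tnfrsf12a stayed above day 0, with 71.9 CPM on day 3 and 26.7 CPM on day 0 at ZT16 (log2 fold 1.43), and 65.9 and 23.9 CPM at ZT4 (1.47), a call that ended in cells thinned to 1000 UMIs. Bcl3 was higher, with 44.4 CPM on day 3 and 13.9 CPM on day 0 at ZT16 (1.68) and 31.8 and 11.6 CPM at ZT4 (1.46). Tnfsf12 remained lower, with 58.7 and 163 CPM at ZT16 (-1.47) and 61.7 and 160 CPM at ZT4 (-1.38). These were 3 of 9 members, beside 20.4% of all genes. In macrophage-like cells Tnf fell to 50.9 CPM on day 3, against 132 CPM on day 0, at ZT16 (-1.37), and to 55.3 against 160 CPM at ZT4 (-1.53). Nfkbia fell to 440 against 1132 CPM at ZT16 and to 440 against 915 CPM at ZT4, a call that ended under 3 of the alternatives. These were 2 of 9 members, beside 13.2% of all genes called lower. The class was clusters 20 and 21 on day 0 and clusters 3, 5 and 6 on day 3, so both values compare different clusters. Tnf lay between 31.4 and 80.7 CPM in the day 3 clusters and between 121 and 158 CPM in the day 0 clusters.

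In mural-like cells Bcl3 was the 1 member called of 5, beside 2.52% of all genes called higher. It had 43.5 CPM on day 3 and 6.86 CPM on day 0 at ZT16, and 31.4 and 12.3 CPM at ZT4, from 15 and 8 UMIs on day 3, and the call ended in cells thinned to 1000 UMIs. In dendritic-like cells Tnfrsf1b was the 1 member called of 9, beside 4.92% of all genes called higher, with 60.4 CPM on day 3 and 27.2 CPM on day 0 at ZT16 and 46.8 and 20.6 CPM at ZT4. Its direction turned with doublets kept at ZT4 and at finer clustering at both hours. No member was called in endothelial-like or mature muscle-like cells, where 4.28% and 7.12% of all genes were. Over all kept cells Tnfrsf1b alone was called, with 106 CPM on day 3 and 20.5 CPM on day 0 at ZT16 and 75.4 and 21.7 CPM at ZT4, beside 11.3% of all genes called higher.

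The comparison of ZT16 with ZT4 addresses the circadian side of the study. A member was called within a day where it differed at least 1.5-fold with at least 30 UMIs and an interval that left out no difference. Of 175 readable pairs of member and class, 14 were higher and 11 lower at ZT16, which is 14.3%, beside 10.5% of all pairs. By day these were 6 of 62 pairs on day 0 beside 11.0%, 8 of 48 on day 1 beside 13.2%, and 11 of 65 on day 3 beside 8.05%. The shares of days 0 and 1 are near their background. With 1 library per hour, a difference between hours and one between libraries cannot be told apart.

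Tnfrsf12a differed by class on day 0. At ZT16 it was higher in endothelial-like cells, with 33.9 CPM against 18.6 CPM at ZT4 (log2 fold 0.86, 0.59 to 1.15), and in mural-like cells, with 30.4 against 16.1 CPM (0.90, 0.34 to 1.53). It was lower in myogenic-like cells, with 86.9 CPM at ZT16 against 135 CPM at ZT4 (-0.63, -0.79 to -0.48). On day 1 it was again higher at ZT16 in mural-like cells, with 135 against 73.7 CPM (0.85), a call that ended with equal weight per cell. In endothelial-like cells of day 1 it had 91.6 CPM at ZT16 against 45.0 CPM at ZT4 (0.99), a call that ended with doublets kept and at finer clustering.

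Bcl3 changed direction between days. On day 1 it was lower at ZT16 in 6 of the 6 classes that could be read, and called in macrophage-like cells, with 25.3 CPM at ZT16 against 45.4 CPM at ZT4 (log2 fold -0.84, -0.94 to -0.74), and in dendritic-like cells, with 48.8 against 73.7 CPM (-0.59). The dendritic-like call ended under 3 of the alternatives. The macrophage-like clusters differed in this gene and in number, with cluster 4 at 45.5 CPM at ZT16 and 75.6 CPM at ZT4 making up 27.7% and 48.0% of the class, and cluster 1 at 19.4 and 24.4 CPM. On day 3 it was higher at ZT16 in 5 of 6 classes. It had 40.9 CPM at ZT16 against 24.9 CPM at ZT4 in macrophage-like cells (0.71), 23.0 against 14.1 CPM in myogenic-like cells (0.70) and 90.8 against 29.0 CPM in neutrophil-like cells (1.63, from 36 and 19 UMIs). The difference between the days was not tested.

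Birc3 was lower at ZT16 on day 0 in endothelial-like cells, with 11.8 CPM against 20.2 CPM at ZT4 (log2 fold -0.77), and in fibro-adipogenic-like cells, with 12.3 against 18.5 CPM (-0.59), where the call ended under 3 of the alternatives. On day 3 neutrophil-like cells had more Tnf at ZT16, 507 against 315 CPM at ZT4 (0.69, 0.40 to 0.98). T cell-like cells of day 3 had less Tnf at ZT16, 76.9 against 117 CPM (-0.61), and less Nfkbia, 901 against 1408 CPM (-0.64). The Tnf call ended under median-of-ratios scaling and the Nfkbia call under 3 of the alternatives. In endothelial-like cells of day 1 Tnf had 21.2 CPM at ZT16 against 80.6 CPM at ZT4, but a single cell held 27 of the 34 UMIs at ZT4, and without the cell with most Tnf in each library the log2 fold was -0.02. Tnf in dendritic-like cells of day 1 had 18.6 CPM at ZT16 against 11.9 CPM at ZT4. Tnfsf12 in endothelial-like cells of day 1 had 115 CPM at ZT16 against 66.3 CPM at ZT4. Both of these calls ended under 3 of the alternatives. Tnfaip3 in fibro-adipogenic-like cells of day 1 had 4.95 against 14.6 CPM, from 14 and 24 UMIs, and the call ended after thinning. Bcl3 in myogenic-like cells of day 0 had 26.2 CPM at ZT16 against 17.2 CPM at ZT4, and its direction turned after thinning. On day 3 Tnfrsf1b was higher at ZT16 in fibro-adipogenic-like cells, with 23.2 against 12.6 CPM, and in myogenic-like cells, with 6.15 against 3.70 CPM, and each of these calls ended under 2 of the alternatives. Tnfrsf1a in mural-like cells of day 3 was lower, with 226 CPM at ZT16 against 401 CPM at ZT4, a call that ended under 2 of the alternatives. Birc3 in T cell-like cells of day 3 was lower, with 25.6 CPM at ZT16 against 48.1 CPM at ZT4, a call that ended at finer clustering. Tnf in myogenic-like cells of day 3 was higher, with 1.63 CPM at ZT16 against 0.925 CPM at ZT4, and its direction turned with doublets kept.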

How the data were processed

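The starting point was 1 deposited matrix of raw UMI counts per library. Cell Ranger 6.1.2 wrote them, per the file headers, while Cell Ranger 1.0.0 and mm10 are named in the submitters' processing notes. The annotation release and strand setting behind the counts are not given in the sources used here. A barcode needed 200 genes, 500 UMIs and a mitochondrial share of no more than 10%. The barcodes with the highest scrublet scores, 0.8% per 1000 barcodes, were removed as doublets (534 to 1229 per library). Clustering used scanpy 1.11.5 in Python 3.11.15, with 2000 variable genes that excluded the 9 members and the companion lists, 30 principal components, 15 neighbours, Leiden resolution 1.0 and no batch correction. A cluster took a class name from at least 3 listed markers, each 2-fold above the remaining cells and found in 10% of its cells, unless its 10 leading genes or its depth went against the name, and 36 of 40 clusters were named. The lists of resident and monocyte-derived macrophages were joined after the clusters were seen.

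UMIs of a class were summed per library and divided by the class total (CPM, computed here from the deposited counts). log2 folds had 0.5 UMI added to each sum. Intervals are exact Poisson (levels) and exact conditional binomial (folds) at 95%. A class needed 50 cells in each library compared. The fold rule was tested on simulated data. Upstream windows came from RefSeq (GRCm38.p6), where 8 of 9 members matched. Likeness was Pearson's r of log2(CPM + 1) over genes with at least 300 UMIs, the 3 genes of highest r being the ones to name. Companion lists are described by counts, medians and the members of largest fold that met the rule. The use of S100a8 and S100a9 as neutrophil genes was chosen after their values were seen. The members and lists were chosen with earlier results of these data known. The alternatives tried were doublets kept, cells thinned to 1000 UMIs, free RNA subtracted, Leiden resolution 2.0, equal weight per cell, median-of-ratios scaling, other UMI minimums and a higher fold.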

Additional observations from a re-analysis of the deposited data

Results flagged for a closer look

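The 5 results below stand out because 2 classes moved in opposite directions in the same comparison. None of these differences was tested, and each value below is the difference of the classes' mean log2 folds. For Tnfrsf12a at ZT16 against ZT4 on day 0, mural-like cells were higher and myogenic-like cells lower, 1.536 apart. For Tnfrsf12a on day 3 against day 1, neutrophil-like cells were higher and fibro-adipogenic-like cells lower, 3.342 apart, with 13 and 31 UMIs on the neutrophil-like side of day 3. For Tnf on day 1 against day 0, fibro-adipogenic-like cells were higher and dendritic-like cells lower, 5.44 apart, where a single cell held 8 of 12 UMIs of fibro-adipogenic-like cells at ZT16 and 7 of 12 at ZT4. For Tnf at ZT16 against ZT4 on day 1, dendritic-like cells were higher and endothelial-like cells lower, 2.547 apart, where a single cell held 27 of the 34 endothelial-like UMIs at ZT4. For Tnf at ZT16 against ZT4 on day 3, myogenic-like cells were higher and T cell-like cells lower, 1.423 apart, from 31 and 26 UMIs in myogenic-like cells at ZT16 and ZT4.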

How the results depend on the processing

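No paired analysis was possible because each group is 1 library. Of 62 calls, counting all kept cells as a class, 38 stayed past the fold under all 6 alternatives of doublets, depth, free RNA, clustering, weight and scaling. Over the classes there were 11 calls on day 1 against day 0, 5 on day 3 against day 1, 12 on day 3 against day 0 and 25 at ZT16 against ZT4. In cells thinned to 1000 UMIs there were 6 on day 1 against day 0, 7 on day 3 against day 0 and 15 at ZT16 against ZT4. With free RNA subtracted, up to a set limit of 0.9 of a class, there were 17 on day 1 against day 0 and 15 on day 3 against day 1. Fibro-adipogenic-like cells of day 1 reached that limit at ZT4 and had a share of 0.7996 subtracted at ZT16. For mural-like cells of day 1 the share was 0.69 at ZT4 and 0.338 at ZT16. Shares this large may subtract too much, so a call kept under this alternative is weak evidence in these classes. With 3-fold for days and 2-fold for hours there were 3 on day 3 against day 1, 4 on day 3 against day 0 and 3 at ZT16 against ZT4. The log2 fold of Tnfrsf1b on day 3 against day 0 in dendritic-like cells, 1.14 at ZT4 and 1.13 at ZT16, was -0.23 with doublets kept and -0.55 at resolution 2.0 at ZT4, and -0.033 at resolution 2.0 at ZT16. For ZT16 against ZT4, Tnf in day 3 myogenic-like cells, 0.81, was -0.073 with doublets kept, and Bcl3 in day 0 myogenic-like cells, 0.60, was -0.057 after thinning. In the main clustering cluster 21, led by Retnla, Lyz1 and Ear2, was named macrophage-like. A cluster led by these genes was named dendritic-like at resolution 2.0, with 136 day 0 cells at ZT16 and 187 at ZT4. With doublets kept such a cluster was also named dendritic-like, with 119 and 172 day 0 cells. The main dendritic-like class had 76 and 59 cells on day 0. The causes of the turned directions were not tested. Adding cluster 26 to the endothelial-like class, or leaving out day 0 cells of day 3 myogenic clusters, both chosen after the data were seen, turned no direction among the values recomputed. With cluster 26 added, 4 of the 9 endothelial-like log2 folds recomputed moved out of their intervals. Counts under 30 UMIs per pair limit what can be read in mural-like, endothelial-like and T cell-like cells.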
